A study of Homo sapiens with 4 samples.

Results

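Selective autophagy receptors are adaptor proteins that tie a chosen cargo to the growing autophagosome. The 10 receptor genes described here were taken by symbol from the deposited expression table. They are the cargo receptors SQSTM1, NBR1, OPTN, CALCOCO2, TAX1BP1 and TOLLIP and the mitochondrial receptors BNIP3, BNIP3L, FUNDC1 and PHB2. All 10 were among the 18134 genes listed, and all 10 passed the low-count filter that left 14048 genes for testing. They were measured in PC9 cells, an epithelial lung adenocarcinoma line with an activating EGFR mutation. The cells had been infected with a lentivirus carrying either a hairpin against TPX2, a microtubule nucleation factor of the mitotic spindle (shTPX2), or a negative control hairpin (shNC), and were then kept as antibiotic-selected stable lines. Poly(A) RNA was sequenced from 2 libraries per group, 4 libraries in 1 labelled batch. The labels do not say whether libraries of a group came from separate cultures, so the p-values below measure only the spread between these libraries, which may be technical.

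Most cargo receptors of this kind bind ubiquitin on the cargo with one end and a protein of the ATG8 family (LC3 and GABARAP) on the inner autophagosome membrane with a short LC3-interacting motif. The mitochondrial receptors instead sit in the mitochondrial membranes themselves and carry the motif there, so that a whole organelle can be taken up. SQSTM1 protein (p62) is itself degraded with its cargo, and its amount therefore depends on turnover as well as on mRNA. The present data are mRNA levels only.

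The core of the LC3-interacting motif is a bulky aromatic residue followed, a few residues on, by a branched hydrophobic residue. The coding sequence around it is shown for receptors of both classes because it is the feature they share and the mRNA measured here encodes it. Capitals mark the 4 codons of the core, and the lower-case letters are coding sequence on either side. The sequences are 48 bases each, on the coding strand, from GENCODE v29 transcripts on GRCh38.
SQSTM1, plus strand, exon 7, codons 338 to 341 of 440, chr5:179833611-179833658: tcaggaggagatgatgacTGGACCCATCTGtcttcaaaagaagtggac
NBR1, plus strand, exon 17, codons 732 to 735 of 966, chr17:43200316-43200363: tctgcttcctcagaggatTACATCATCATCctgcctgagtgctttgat
OPTN, plus strand, joined from exons 6 and 7, codons 178 to 181 of 571, chr10:13112597-13116275: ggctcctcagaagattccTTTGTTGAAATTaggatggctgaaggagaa
BNIP3, minus strand, joined from exons 1 and 2, codons 83 to 86 of 259, chr10:131973909-131981773: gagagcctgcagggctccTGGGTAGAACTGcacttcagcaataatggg
FUNDC1, minus strand, exon 2, codons 18 to 21 of 155, chrX:44542049-44542096: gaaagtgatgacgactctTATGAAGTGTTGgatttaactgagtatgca
The core opened with a TGG codon in SQSTM1 and BNIP3, with TAC in NBR1, TTT in OPTN and TAT in FUNDC1. Serines just before the core are known to be phosphorylated by TBK1 in OPTN and by CK2 in FUNDC1.

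The hairpin was directed at the following 21 bases, all in capitals, which matched transcripts of no gene other than TPX2 in GENCODE v29.
shTPX2 target: CGTGAACTTGATCCCAGAATA
TPX2 (GRCh38.p14, chr20:31739290-31801800) was listed at 55.01 and 111.85 TPM in shNC 1 and 2 and at 43.35 and 43.77 TPM in shTPX2 1 and 2. TPM (transcripts per 1e6 transcripts) is a level scaled for gene length and library depth. Both shTPX2 libraries were below both shNC libraries, and the shNC libraries were further apart from each other than shNC 1 was from the shTPX2 libraries. The log2 fold change of TPX2 was -0.81 (SE 0.32, adjusted p = 0.618, edgeR quasi-likelihood test), and it was -0.25 when shNC 2 was left out.

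Depth was close to even between the 4 libraries. Expected counts per library summed to 20906441 to 21972583. All 7 epithelial markers (EPCAM, CDH1, KRT7, KRT8, KRT18, KRT19 and EGFR) were above 1 TPM in every library, with sums of 20157 to 27730 TPM in shNC and 24156 to 25862 TPM in shTPX2. The defining markers of lung lineage were nearly absent: none of NKX2-1, NAPSA, SFTPB and SFTPC was above 1 TPM in all libraries, and the highest value was 1.67 TPM. The leukocyte marker PTPRC was at most 0.69 TPM, while the whole leukocyte list summed to 133 to 250 TPM in shNC and 184 to 200 TPM in shTPX2, most of it CD68 (126 to 220 TPM over the 4 libraries). CD14 was highest in shNC 2, at 27.3 TPM against 6.40 to 14.2 TPM in the others. Fibroblast markers summed to 9.19 to 12.4 TPM in shNC and 5.90 to 8.29 TPM in shTPX2. Endothelial markers summed to 19.9 to 32.6 TPM in shNC and 31.1 to 36.5 TPM in shTPX2. CDH5 was higher in both shTPX2 libraries (26.7 and 30.5 TPM) than in shNC (14.4 and 18.1 TPM), PECAM1 was highest in shNC 2 at 14.4 TPM, and VWF was at most 0.17 TPM. The part of these genes in the results below was not tested. In bulk RNA, fewer cells that express a gene and less of its RNA per cell cannot be told apart.

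The receptors differed in level far more between genes than between groups. SQSTM1 stood first in every library, with 1215 ± 532 TPM (SD, n = 4), and it ranked from 71 to 235 among all listed genes. PHB2 came second in every library with 374 ± 25.5 TPM, and TAX1BP1 followed with 124 ± 18.0 TPM. These 3 ranges did not overlap with each other or with that of any other receptor. CALCOCO2, BNIP3L and NBR1 followed at 49.7 ± 7.86, 47.5 ± 6.93 and 46.1 ± 4.92 TPM, and neighbours in that order overlapped. BNIP3, OPTN and TOLLIP formed a lower tier at 32.5 ± 4.75, 31.4 ± 3.43 and 30.4 ± 3.50 TPM, again overlapping. FUNDC1, an outer-membrane mitophagy receptor for hypoxic mitochondria, was the lowest at 15.1 ± 1.04 TPM, below all other receptors in every library.

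The comparison of shTPX2 with shNC asked whether receptor transcripts differ when TPX2 is partly depleted. SQSTM1 had the largest fold change of the 10, higher in shTPX2 on average, but its libraries overlapped between groups. TAX1BP1 and NBR1 were lower in both shTPX2 libraries. In log2 CPM, counts were scaled to library totals adjusted by TMM, a normalization described below. On this scale the difference of their group means was larger than the gap between replicates in either group, as in 26.6% of all tested genes. In the other 8 receptors, SQSTM1 included, the difference in log2 CPM was smaller than that gap in at least 1 group. None of the 10 passed an adjusted p under 0.05 in edgeR's quasi-likelihood test, and the share of all tested genes that passed was 0%. None passed at an unadjusted p under 0.05 either, against 8.03% of all tested genes (3.13% higher and 4.9% lower). In DESeq2, 0 of 10 passed an adjusted p under 0.05, against 0.79% of all tested genes, and SQSTM1 alone passed an unadjusted p under 0.05, against 7.5%. The study's methods name limma after voom with a p-value of at most 0.1 and a log fold change of at least 0.3, without a log base, and these criteria were read here as an unadjusted p and an absolute log2 fold change. At these criteria, 1 of the 10 receptors was called higher, SQSTM1, and 0 were called lower. TPX2 itself was called lower, at a limma log2 fold change of -0.73. The same criteria called 14.2% of all tested genes, 6.24% higher and 7.99% lower. The share among the receptors, 1 of 10, is near that background. Read as log10, the fold threshold was met by 0 receptors.

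**Figure D1:**
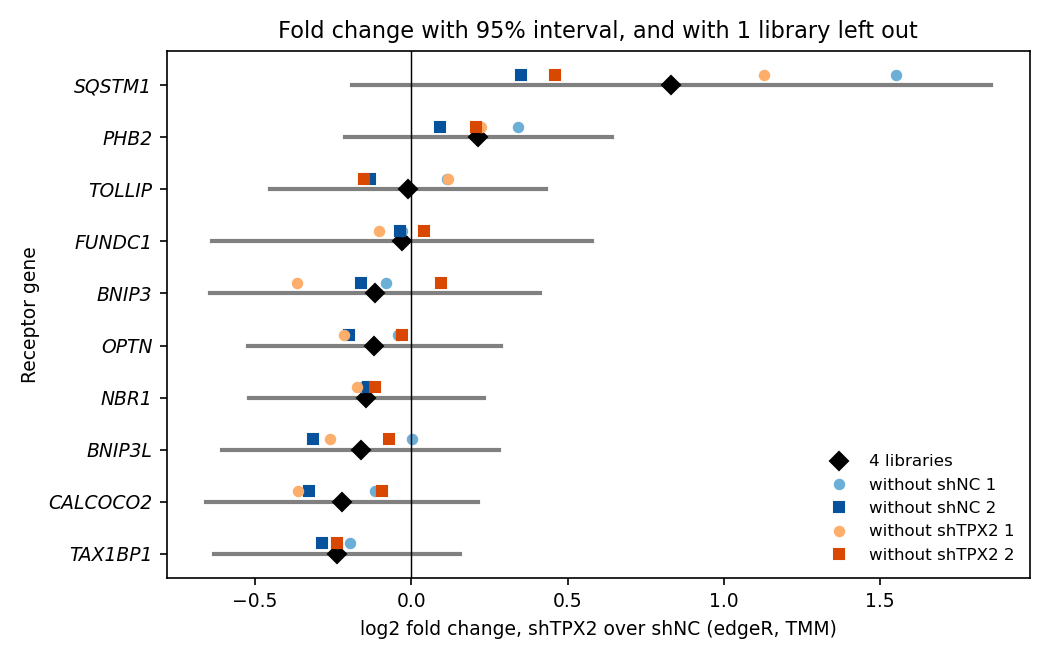
Log2 fold change of each receptor, shTPX2 over shNC, from edgeR with its 95% confidence interval, and the values obtained when each library in turn was left out. All 10 intervals cross 0, and the leave-out values of SQSTM1 run from 0.35 to 1.55.

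SQSTM1 (NCBI gene 8878, chr5:179806393-179838078) encodes p62, which gathers ubiquitinated proteins into condensates and also holds KEAP1, the repressor of the transcription factor NRF2. It was listed at 1274 and 569 TPM in shNC 1 and 2 and at 1152 and 1865 TPM in shTPX2 1 and 2. The lowest and the highest values belonged to different groups, but shTPX2 1 was below shNC 1, so the groups overlapped. The 2 shNC libraries were 2.24-fold apart and the 2 shTPX2 libraries 1.62-fold apart, while counting error alone was at most 1.55% either way in a library, over 15952 to 53559 expected counts. The group means were 922 ± 499 and 1509 ± 504 TPM (SD, n = 2). The log2 fold change was 0.83 (SE 0.42, 95% CI -0.19 to 1.85, adjusted p = 0.684, edgeR), and the limma fit that met the study's criteria gave 0.91. The edgeR log2 fold change was 0.35 without shNC 2 and 0.46 without shTPX2 2, and in both cases the limma fit no longer met the criteria. In edgeR it was 1.55 without shNC 1 and 1.13 without shTPX2 1. Few genes varied as much: only 4.48% of tested genes had a larger range of log2 CPM over the 4 libraries than the 1.84 of SQSTM1.

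The order of the libraries in SQSTM1 was shNC 2, shTPX2 1, shNC 1, shTPX2 2. Of 14047 genes compared, the nearest centred log2 CPM profile was that of ISG15, the interferon-induced ubiquitin-like modifier. Its Euclidean distance over the 4 libraries was 0.10, wider than that of the nearest gene of any other receptor. With 4 values per gene, some near profile is bound to turn up among so many genes, so nearness shows no link. ISG15 was listed at 63.8, 31.3, 60.1 and 95.8 TPM in shNC 1, shNC 2, shTPX2 1 and shTPX2 2. The SQSTM1 locus overlaps MGAT4B and MRNIP on the opposite strand, and whether their exons overlap was not checked. The strand setting of the counting is not given in the sources used here, so reads in any shared exons cannot be told apart. MGAT4B was listed at 306 and 309 TPM in shNC and at 349 and 498 TPM in shTPX2, MRNIP at 4.66 to 7.12 TPM over the 4 libraries. Listed genes on the opposite strand also overlap TAX1BP1 (JAZF1), OPTN (CCDC3) and BNIP3L (PNMA2), and the same limit holds there.

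NBR1 (NCBI gene 4077, chr17:43170409-43211688), which shares the ubiquitin-binding and PB1 domain plan of p62 and drives its condensates, was listed at 49.05 and 51.42 TPM in shNC and at 42.37 and 41.45 TPM in shTPX2. Both shTPX2 libraries were below both shNC libraries, and the groups were further apart than replicates. The log2 fold change was -0.15 (SE 0.16, 95% CI -0.52 to 0.23, adjusted p = 0.844, edgeR), and it stayed between -0.17 and -0.12 when any library was left out. SQSTM1 relative to NBR1 in TPM was 26.0 and 11.1 in shNC and 27.2 and 45.0 in shTPX2. The groups did not overlap in this ratio, but shNC 1 and shTPX2 1 were nearly equal.

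TAX1BP1 (NCBI gene 8887, chr7:27739373-27829767), a receptor for protein aggregates that recruits the autophagy-initiating machinery, was listed at 142 and 138 TPM in shNC and at 107 and 110 TPM in shTPX2. The group means were 140 ± 2.84 and 109 ± 1.83 TPM (SD, n = 2), a difference of -22.2% on the TPM scale. The gap between groups was wider than the gap within either. After TMM normalization, which rescales libraries so that most genes do not differ, the log2 fold change was -0.24 (SE 0.16, 95% CI -0.63 to 0.15, adjusted p = 0.757, edgeR), between -0.29 and -0.20 when any library was left out. TAX1BP1 met the study's criteria as lower only when the counts were scaled by library size alone or by quantiles, at a log2 fold change of -0.31 and -0.30. PPP1CB, a catalytic subunit of protein phosphatase 1, had the nearest profile, at a distance of 0.012 and with 100, 98.3, 75.9 and 77.6 TPM.

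CALCOCO2 (NCBI gene 10241, chr17:48831035-48865245) encodes NDP52, a receptor for invading bacteria and damaged mitochondria. It was listed at 58.69 and 52.46 TPM in shNC and at 47.30 and 40.16 TPM in shTPX2. Both shTPX2 values were below both shNC values, but the replicates of each group were further apart than shNC 2 was from shTPX2 1. The log2 fold change was -0.22 (SE 0.18, 95% CI -0.66 to 0.21, adjusted p = 0.788, edgeR), and -0.36 to -0.09 when any library was left out. OPTN (NCBI gene 10133, chr10:13100082-13138308), the optineurin receptor of bacteria and mitochondria that TBK1 phosphorylates, was listed at 35.34 and 32.73 TPM in shNC and at 30.08 and 27.38 TPM in shTPX2. Its order was the same as that of CALCOCO2, and its log2 fold change was -0.12 (SE 0.17, 95% CI -0.52 to 0.29, adjusted p = 0.884, edgeR), with -0.22 to -0.03 when any library was left out. TOLLIP (NCBI gene 54472, chr11:1274371-1309632), which joins ubiquitin-binding CUE domain activity to endosomal sorting, was listed at 33.88 and 29.64 TPM in shNC and at 25.83 and 32.18 TPM in shTPX2. Its groups overlapped, and its log2 fold change was -0.01 (SE 0.18, 95% CI -0.45 to 0.43, adjusted p = 0.991, edgeR), with a sign that turned without the low-count filter, without shNC 1 and without shTPX2 1.

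The mitochondrial receptors BNIP3 and BNIP3L (NIX) are paralogs of the outer mitochondrial membrane whose genes are known targets of hypoxia-inducible factors. BNIP3 (NCBI gene 664, chr10:131967684-131981923) was listed at 35.57 and 34.85 TPM in shNC and at 34.06 and 25.40 TPM in shTPX2. Only shTPX2 2 stood apart, and the log2 fold change of -0.12 (SE 0.22, 95% CI -0.64 to 0.41, adjusted p = 0.917, edgeR) became 0.10 when that library was left out. PHF6, a chromatin-binding protein, followed nearly the same profile at a distance of 0.0026, with 40.7, 39.2, 40.9 and 25.6 TPM. BNIP3 has 39 named pseudogenes in GENCODE v29, and SQSTM1 and PHB2 have 1 each. Expected counts were not whole in any library for BNIP3, SQSTM1, OPTN and CALCOCO2, and how shared reads were assigned was not tested.

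BNIP3L (NCBI gene 665, chr8:26383054-26413127) was listed at 57.03 and 47.39 TPM in shNC and at 45.03 and 40.64 TPM in shTPX2. The shTPX2 values lay below both shNC values, with shNC 2 close to shTPX2 1. The log2 fold change was -0.16 (SE 0.18, 95% CI -0.60 to 0.28, adjusted p = 0.853, edgeR), and 0.0012 when shNC 1 was left out. The ratio of BNIP3 to BNIP3L in TPM was 0.624 and 0.735 in shNC and 0.756 and 0.625 in shTPX2. The ranges of this ratio overlapped between the groups.

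FUNDC1 (NCBI gene 139341, chrX:44523639-44542859) was listed at 15.66 and 16.14 TPM in shNC and at 14.79 and 13.78 TPM in shTPX2, from 167 to 192 expected counts, the fewest of the 10. The groups did not overlap in TPM, but the log2 fold change was -0.03 (SE 0.25, 95% CI -0.64 to 0.58, adjusted p = 0.983, edgeR) and turned to 0.040 without shTPX2 2. PHB2 (NCBI gene 11331, chr12:6965327-6970753) encodes prohibitin 2, a scaffold of the inner mitochondrial membrane that becomes a receptor once the outer membrane is broken. It was listed at 387 and 337 TPM in shNC and at 378 and 394 TPM in shTPX2. Its groups overlapped in TPM, with shNC 2 the lowest library. Its log2 fold change was 0.21 (SE 0.18, 95% CI -0.21 to 0.64, adjusted p = 0.791, edgeR), and 0.09 to 0.34 when any library was left out. TOMM6, a small subunit of the outer-membrane import complex, had the nearest profile, at a distance of 0.0063 and with 225, 196, 219 and 228 TPM. For the remaining receptors the nearest profiles were those of TTC3 (NBR1), CUX1 (OPTN), FAM86B1 (CALCOCO2), MSI2 (TOLLIP), ZFP1 (BNIP3L) and ARID3B (FUNDC1), at distances of 0.016 to 0.027.

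Across the 10 receptors, 8 had a log2 fold change below 0 and 2, SQSTM1 and PHB2, above 0. Of all tested genes, 51.1% were below 0. The median of the receptors was -0.12, that of the cargo receptors -0.13 and that of the mitochondrial receptors -0.07, against -0.01 over all genes tested. The median of the mitochondrial receptors was 0.07 without shTPX2 2 and that of all 10 was -0.037 without shNC 1. The count of receptors with separate groups depended on the scale. On TPM, 7 of 10 were lower in both shTPX2 libraries than in both shNC libraries and 0 were higher, where 41% of all tested genes had separate groups, 30.3% lower and 10.7% higher. On TMM-normalized CPM, 2 of 10 were lower, NBR1 and TAX1BP1, and 1 was higher, PHB2, where 39.6% of all tested genes had separate groups, 20.2% lower and 19.4% higher. The same 2, NBR1 and TAX1BP1, had a difference of group means in log2 CPM larger than both gaps between replicates, as did 26.6% of all tested genes. In TPM it was 5 of 10, with CALCOCO2, OPTN and FUNDC1 beside those 2, against 27.2% of all tested genes. The median gene differed by -0.09 in log2 TPM between the groups, so part of each TPM difference is shared by most genes.

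SQSTM1 made up most of the receptor mRNA in 3 of the 4 libraries. Its share of the summed TPM of the 10 receptors was 61.0% and 43.5% in shNC and 61.4% and 72.0% in shTPX2. The 10 receptors summed to 2088 TPM in shNC 1, 1308 TPM in shNC 2, 1877 TPM in shTPX2 1 and 2590 TPM in shTPX2 2. SQSTM1's share in shTPX2 1 was barely above that in shNC 1, whereas shNC 2 and shTPX2 2 lay on opposite sides. PHB2 held 18.5% and 25.7% in shNC and 20.1% and 15.2% in shTPX2.

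**Figure D2:**
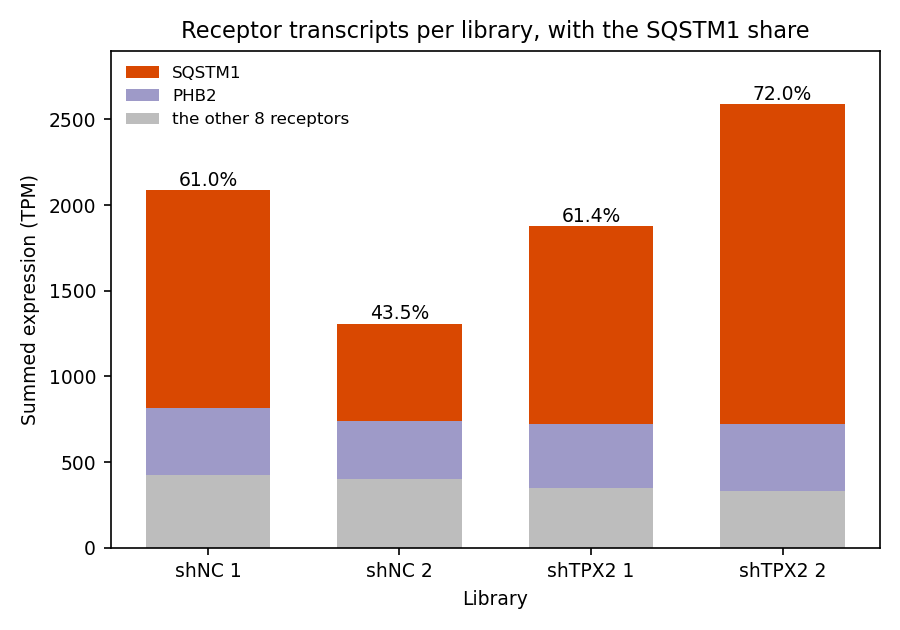
Summed TPM of the 10 receptors, with 1 stacked bar per library. Segments are SQSTM1, PHB2 and all other receptors pooled, and the percent share of SQSTM1 is written above each bar. SQSTM1 takes 43.5% in shNC 2 and 72.0% in shTPX2 2, and the other libraries lie between.

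SQSTM1 and PHB2 were the 2 receptors with a log2 fold change above 0. A sum without them was therefore bound to be lower in shTPX2 and is not a separate result. The other 8 receptors summed to 427 and 402 TPM in shNC and to 347 and 331 TPM in shTPX2. The means were 415 ± 17.4 and 339 ± 11.2 TPM (SD, n = 2), a difference of -18.3%, with groups that did not overlap. Of all tested genes, 30.3% were likewise lower without overlap in TPM. The sum of all 10 differed by 31.5% with overlapping groups, and the sum without SQSTM1 alone by -6.66%. On TMM-normalized CPM the sum of the other 8 was 664 ± 41.2 in shNC and 589 ± 24.6 in shTPX2, a difference of -11.3%. The 5 cargo receptors other than SQSTM1 gave 311 ± 10.4 and 252 ± 1.29 TPM, and BNIP3, BNIP3L and FUNDC1 together 103 ± 6.99 and 86.9 ± 9.94 TPM. With 2 libraries per group no sum can reach an exact two-sided permutation p below 0.333, so no test of them was made.

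The genes around the receptors were read from lists by role. The ATG8 family is what receptors dock on, and 6 of its 7 members were tested. The untested member, MAP1LC3A, was listed at 0.21 to 0.72 TPM. GABARAP was the most abundant at 697 ± 55.9 TPM in shNC and 708 ± 32.6 TPM in shTPX2 (SD, n = 2), with a log2 fold change of 0.15. MAP1LC3B and GABARAPL2 had 0.13 and -0.06, and MAP1LC3B2, a near-identical copy of MAP1LC3B whose reads the counting could split uncertainly, had 0.56. Without shNC 2, GABARAP was at 0.039, MAP1LC3B at 0.018 and MAP1LC3B2 at 0.30. None of these 4 met the study's criteria. MAP1LC3C (3.45, 9.47, 1.53 and 1.94 TPM) and GABARAPL1 (63.4, 123, 45.5 and 49.7 TPM) met them as lower, at log2 fold changes of -1.85 and -0.84, 33.3% of the 6 tested against 14.2% of all tested genes. In both genes shNC 2 was the highest library, and without it the log2 fold changes were -1.003 and -0.31.

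Of 21 other receptors, 2 (9.52%) met the study's criteria, both lower, against 14.2% of all tested genes and 7.99% lower. The median was -0.06, and -0.014 without shNC 2. RETREG1 (FAM134B), a receptor for sheets of the endoplasmic reticulum, was listed at 5.56 and 5.57 TPM in shNC and at 2.40 and 2.25 TPM in shTPX2. Its groups were far apart for their spread, with a log2 fold change of -1.14 (SE 0.29, adjusted p = 0.579, edgeR) and -1.24 to -1.06 when any library was left out. CALCOCO1, the paralog of CALCOCO2 that serves the endoplasmic reticulum and Golgi, was listed at 66.2 and 81.5 TPM in shNC and at 42.7 and 49.9 TPM in shTPX2. Both shTPX2 libraries were the lower ones, at a log2 fold change of -0.56 (SE 0.18, adjusted p = 0.579, edgeR), and -0.69 to -0.43 when any library was left out.

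Among 22 kinases, ligases and scaffolds that act on receptors, 3 met the criteria as higher and 1 as lower, 18.2% in all against 14.2% of all tested genes. The median was -0.05, and its sign turned with the library left out, from -0.09 without shTPX2 1 to 0.06 without shNC 1. The higher ones were IKBKE, the kinase related to TBK1, at 0.66, PGAM5, a mitochondrial phosphatase that acts on FUNDC1, at 0.41, and MUL1, a mitochondrial ubiquitin ligase, at 0.38. The lower was FBXL4, which is known for the turnover of BNIP3 and BNIP3L, at -0.67. Without shTPX2 1 IKBKE was at 0.43, and without shTPX2 2 FBXL4 was at -0.44. TBK1 itself was listed at 25.2 and 26.1 TPM in shNC and at 23.7 and 26.6 TPM in shTPX2, and its groups overlapped. Of 8 inner-membrane partners of PHB2, only PGAM5 met the criteria (12.5% against 14.2% of all tested genes), and the median was 0.20.

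Among 20 targets of NRF2, the factor that also drives SQSTM1 transcription, 3 met the criteria as higher and 0 as lower, 15% against 14.2% of all tested genes. The median was 0.20, and 0.04 without shNC 2. They were AKR1B10 at 0.73, the export pump ABCC2 at 0.52 and glutathione reductase (GSR) at 0.40. ABCC2 was at 0.17 without shNC 2 and GSR at 0.24 without shNC 1. OSGIN1 had the largest log2 fold change of the list, 0.76, without meeting the criteria, and shTPX2 2 alone stood high in it at 22.3 TPM against 9.71 to 11.3 TPM in the others. Without that library OSGIN1 was at 0.16. Among 20 hypoxia targets, genes under the factor that also drives BNIP3 and BNIP3L, 2 met the criteria as higher, ENO1 at 0.50 and PFKFB3 at 0.52, and 3 as lower, BHLHE40 at -0.74, NDRG1 at -0.58 and KDM3A at -0.34. These are 25% of the list, against 14.2% of all tested genes. ENO1 was at 0.32 without shNC 2 and BHLHE40 at -0.35 without shNC 1. The median was -0.07, and it ran from -0.14 without shTPX2 1 to 0.07 without shTPX2 2. Of 13 tested transcription regulators of autophagy genes, 0 met the criteria in either direction, against 14.2% of all tested genes. The median was -0.03, and the largest log2 fold change was that of FOXO3, -0.39. Without shNC 1, FOXO3 was at -0.11 and the median at 0.10, and without shNC 2 they were at -0.63 and -0.15. Across these lists no gene passed an adjusted p under 0.05 in edgeR.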

How the data were processed

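RNA-seq reads of the 4 libraries were processed by the authors. Their methods name RSEM or StringTie for quantification, while the submitters' processing notes name HISAT2, featureCounts, DESeq2 and the build GRCh38. Each gene has an expected count deposited by the authors, not whole in 42.15% to 44.6% of genes of a library (tolerance 1e-09), with FPKM and TPM values. Group means in the same table were used in no test. Strand setting and annotation are not given in the sources used here.

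Expected counts were rounded and tested across all 14048 genes kept by filterByExpr by quasi-likelihood in edgeR 4.0.16 (TMM, Benjamini-Hochberg adjustment), in R 4.3.3. The study's criteria were applied with limma 3.58.1, and DESeq2 1.42.0 was an alternative. TPM gave levels and shares. The common dispersion was 0.0485, so spread between libraries rather than depth limits all but the weakest genes. Replicates differed well beyond counting noise (chi-square per gene 71.5 in shNC and 42.6 in shTPX2). Code was tested on simulated data.

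The receptors, the lists and the alternatives were chosen with earlier results of these data known. The genes named are the 10 receptors, TPX2, the tested ATG8 genes, each list gene that met the study's criteria, the largest fold change of each list, and the gene with the nearest profile to a receptor. TBK1, MAP1LC3A, the marker genes and the genes overlapping a receptor were named outside this rule, after values were seen. Gene positions are RefSeq's (GRCh38.p14).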

Additional observations from a re-analysis of the deposited data

Results flagged for a closer look

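The deposited table also holds group means computed by the authors, which entered no comparison above. In TPM, the authors' shNC means times 3 gave whole hundredths for 99.99% of genes and the authors' shTPX2 means times 4 for 100% of genes (tolerance 0.001), and the means equalled those of the 2 listed libraries, within 0.006, for 5.24% and 4.97% of genes. The libraries behind them beyond those listed were not analysed here. For none of the 10 receptors did the authors' mean equal the mean of the listed libraries. The authors' mean lay outside the range of the 2 listed libraries for 6 of the 10 receptors in shNC and 9 in shTPX2. For SQSTM1 the authors' shTPX2 mean was 898 TPM, below both listed shTPX2 libraries. The receptors below are given because the authors' shTPX2 mean was above the authors' shNC mean. For SQSTM1 the ratio of the authors' means was 1.28, against 1.64 from the listed libraries. For BNIP3 it was 1.41, against 0.844 from the listed libraries. For FUNDC1 it was 1.10, against 0.898. PHB2 turned the other way, with 0.942 from the authors' means and 1.07 from the listed libraries. In all, 3 of the 10 receptors had opposite directions. These ratios have no error or n and were not tested.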

How the results depend on the processing

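No receptor passed an adjusted p under 0.05 in edgeR under any alternative run, nor in DESeq2 or limma. At an unadjusted p under 0.05, 1 receptor, SQSTM1, was called higher by DESeq2 (0 in the edgeR runs that kept all 4 libraries). The share of all tested genes at that threshold was 7.5% in DESeq2 and 8.03% in edgeR. At the study's criteria, the 1 higher call became 0 with adjusted p-values and 0 with the fold threshold read as log10 (added after seeing the data). The edgeR log2 fold change of SQSTM1 ran from 0.35 to 1.55 when each library was left out. Lower calls went from 0 to 1, TAX1BP1, with library size only and to 1 with quantile normalization. In these 2 runs 1445 and 1001 of the 14048 genes met the criteria as lower, against 1122 in the main limma fit. The median of the receptors, -0.12, ran from -0.19 to -0.037. Receptors with separate groups went from 0 to 1 higher on CPM with TMM factors or library size only. Lower ones went from 7 to 2 with TMM factors and to 6 with library size only. Of all tested genes, 30.3% were lower and 10.7% higher without overlap on TPM. On CPM with TMM factors these shares were 20.2% and 19.4%, and the shares with library size only are not given here. The share of SQSTM1 without PHB2 was 74.9%, 58.6%, 76.9% and 84.9% in shNC 1, shNC 2, shTPX2 1 and shTPX2 2. The sign of TOLLIP turned to 0.0048 without a low-count filter and its leave-out range was -0.15 to 0.12. Leave-out ranges of BNIP3 (-0.37 to 0.10), BNIP3L (-0.32 to 0.0012) and FUNDC1 (-0.10 to 0.040) also crossed 0. Leaving out a library leaves 1 group with a lone sample, assumed to vary like the others.

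The replicate numbers are shared by the groups only as numbers. Deviations from the group mean in shNC 1 and shTPX2 1 correlated at 0.182 over the tested genes. With 2 libraries per group, the other pair gives the same value. With the replicate block, SQSTM1 had a log2 fold change of 0.91 (adjusted p = 0.567, edgeR), 0 receptors passed an adjusted p under 0.05, and 2447 genes in place of 1998 met the study's criteria. Depth limits FUNDC1 most.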
